A study of Mus musculus with 7 samples.

Results

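The genes described here coat, enlarge or serve the lipid droplets of fat cells: the perilipins Plin1 to Plin5, the CIDE proteins Cidea, Cideb and Cidec, and the glycerol channel Aqp7. They were chosen by name, and all 9 of the 9 had a probe with exactly 1 gene symbol among the 9294 genes of the deposited table. Each had a single probe, and none of these probes shared all its values with another probe. The arrays (Affymetrix, total RNA labelled with biotin) measured whole fat tissue of wild-type male C57 mice from 2 depots. Paracardial fat, which lies beside the heart and is abbreviated pCF, gave 4 arrays, and intra-abdominal fat, abbreviated iVF, gave 3, and single arrays are written pCF 1 to 4 and iVF 1 to 3. No treatment, transgene or deletion is named for either group, and neither age nor pooling is stated for the mice. Samples of 1 depot are labelled biological replicates with no animal named for each, so a p-value here speaks of the spread between these samples, which may be technical. In whole tissue, fewer fat cells and less RNA per fat cell cannot be told apart.

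A fat cell stores triglyceride in a droplet whose surface is covered by perilipins, which hold lipases off the lipid or let them in when the cell is stimulated to release fatty acids. CIDE proteins gather where droplets touch and let lipid pass from the smaller to the larger one, which makes the large single droplet of white fat. Lipolysis also frees glycerol, which leaves the cell through the aquaglyceroporin Aqp7. Several of these genes are targets of the nuclear receptor PPAR gamma, which binds DNA at direct repeats of a short half-site.

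In these arrays 4 of the 9 genes were lower in paracardial fat and none was higher. The 4 were the droplet coat genes Plin4 and Plin1, the droplet fusion gene Cidec and the glycerol channel gene Aqp7, whose mean values lay 6.97 to 8.13 lower on the log2 scale. Across all genes tested, 2.91% were lower and 6.25% higher at an adjusted p under 0.05 (limma with Benjamini-Hochberg adjustment over all 9294 genes). Plin2 had a mean 3.48 lower and did not pass (adjusted p = 0.0569), and Plin3, Plin5, Cidea and Cideb had overlapping depots. The median difference was -3.48 over the 9 genes and 0.133 over all genes. The split of all calls depended on the scaling, with 581 genes higher and 270 lower as deposited, 436 and 474 after quantile normalization was applied again, and 453 and 571 after cyclic loess. The median of all genes moved to 0.00572 and 0.0408 under these scalings, and none of the 9 genes changed the sign of its difference under either.

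The upstream sequences of the 5 genes whose depots did not overlap are shown with that of Plin5, which lies beside Plin4 on its chromosome and did not pass. They are the 250 bases before the most upstream RefSeq start of each gene (build GRCm38.p6, from RefSeq), read 5′ to 3′ on the gene's own strand. RefSeq sequences were used for 8 of the 9 genes, with none used for Cidea. Capitals mark matches on either strand to a direct repeat of AGGTCA with a single base between and up to 2 mismatches, to the CCAAT box, and to TTGCNNAA, a core of C/EBP sites.
Plin4, chr17:56109783-56110032, minus strand: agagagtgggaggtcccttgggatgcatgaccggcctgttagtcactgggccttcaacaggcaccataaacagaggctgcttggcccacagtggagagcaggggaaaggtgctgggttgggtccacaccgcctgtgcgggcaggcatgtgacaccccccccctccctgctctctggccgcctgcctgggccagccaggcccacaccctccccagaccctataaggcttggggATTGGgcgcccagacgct
Cidec, chr6:113435761-113436010, minus strand: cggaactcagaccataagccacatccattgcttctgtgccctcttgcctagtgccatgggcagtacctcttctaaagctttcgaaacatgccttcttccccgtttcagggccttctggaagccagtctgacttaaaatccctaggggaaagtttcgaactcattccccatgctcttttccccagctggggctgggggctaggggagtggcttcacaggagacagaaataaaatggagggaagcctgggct
Aqp7, chr4:41048137-41048386, minus strand: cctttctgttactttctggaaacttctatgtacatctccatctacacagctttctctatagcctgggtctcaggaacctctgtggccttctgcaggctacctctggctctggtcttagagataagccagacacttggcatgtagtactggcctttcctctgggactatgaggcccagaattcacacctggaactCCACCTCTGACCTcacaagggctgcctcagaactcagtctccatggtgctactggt
Plin1, chr7:79732777-79733026, minus strand: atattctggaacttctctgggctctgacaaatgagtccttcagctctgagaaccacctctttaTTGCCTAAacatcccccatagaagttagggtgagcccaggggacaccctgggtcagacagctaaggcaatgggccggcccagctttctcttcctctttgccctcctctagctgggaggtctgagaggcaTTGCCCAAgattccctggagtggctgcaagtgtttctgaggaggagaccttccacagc
Plin2, chr4:86670060-86670309, minus strand: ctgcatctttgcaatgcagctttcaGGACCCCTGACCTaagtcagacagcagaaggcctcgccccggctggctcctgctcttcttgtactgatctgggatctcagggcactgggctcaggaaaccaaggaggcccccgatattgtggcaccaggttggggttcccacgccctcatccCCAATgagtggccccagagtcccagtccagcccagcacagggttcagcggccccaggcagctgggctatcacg
Plin5, chr17:56117549-56117798, minus strand: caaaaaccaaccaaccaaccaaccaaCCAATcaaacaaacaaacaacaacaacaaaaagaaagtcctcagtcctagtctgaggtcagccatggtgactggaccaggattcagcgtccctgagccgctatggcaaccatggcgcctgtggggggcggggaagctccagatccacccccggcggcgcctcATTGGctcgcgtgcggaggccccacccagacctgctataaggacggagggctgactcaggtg
A repeat match was found in Aqp7, at -56 to -44 from the start, and in Plin2, at -225 to -213. Both matches lie on the opposite strand, read AGGTCAGAGGTGG and AGGTCAGGGGTCC there, carry 2 mismatches and contain an exact AGGTCA half-site. Of 32851 RefSeq upstream windows of the same length, 3.24% held such a repeat and 14.0% the half-site. The windows of Plin4, Cidec and Plin1 held neither, and Plin5 held a half-site without the repeat. Plin4, Plin2 and Plin5 held a CCAAT box, as did 33.8% of all windows, and Plin1 held TTGCNNAA at 2 places, as did 9.56% of all windows at 1 place or more. These are matches of letters in a short window and no measurement of binding.

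Each array had a top value between 19.8 and 19.9 that many probes came near and none of the 9 genes reached, and the median over all probes was 5.99 to 6.37. The top value was highest, and equal, in pCF 4 and iVF 3, which are called an array set here. Of 15 adipocyte markers that are not among the 9 genes, 9 were measured (Adipoq, Lep, Fabp4, Retn, Slc2a4, Pnpla2, Gpd1, Agpat2 and Thrsp). Their summed log2 level was 54.9 to 99.5 in paracardial fat and 120.1 to 134.6 in intra-abdominal fat, and 4 of the 9 passed as lower. Their median was 5.78 and 6.32 on paracardial arrays 1 and 2, near the median of all probes there, 10.65 and 11.94 on paracardial arrays 3 and 4, and 13.90, 14.82 and 16.38 on the intra-abdominal arrays. Paracardial arrays 1 and 2 therefore carried little signal of the adipocyte markers that define the labelled tissue. Markers of thymic epithelium ran the other way, with 4 of 7 measured genes higher in paracardial fat and summed levels of 65.6 to 72.2 against 37.1 to 50.8. Thymocyte markers had 2 of 5 higher (52.0 to 64.6 against 36.4 to 49.2) and T and NK cell markers 2 of 4 higher (29.8 to 40.0 against 21.1 to 27.6). The 2 thymocyte markers that passed were Dntt, at 7.05 (limma, adjusted p = 0.0341), and Rag2, at 4.65 (0.0206). The thymocyte marker Cd1d1 differed by -3.29 and did not pass (limma, adjusted p = 0.0578), with every paracardial array below every intra-abdominal array. Among the thymocyte and thymic epithelium markers, iVF 1 stood highest of the intra-abdominal arrays in all but Cd1d1 and Krt14. Cd8b1 was 15.982 on iVF 1, against 16.253 to 19.093 in paracardial fat and 10.496 and 9.055 on iVF 2 and 3. Of 4 endothelial markers 2 were lower (21.5 to 28.2 against 36.6 to 46.4). None passed among 6 B cell markers (35.9 to 44.5 against 31.9 to 34.7), 6 macrophage markers (42.9 to 61.3 against 52.8 to 72.8), 3 mesothelial, 3 liver and 3 brown adipocyte markers, and the single markers measured of fibroblasts and skeletal muscle. Among the liver markers Alb stood at 14.37 on pCF 3 against 4.77 to 6.25 on the other paracardial arrays, and Cyp2e1 differed by -8.29 (limma, adjusted p = 0.0704). No heart muscle marker was measured. The part of these cell types in the values below was not tested. Without paracardial arrays 1 and 2 together none of the 9 genes passed, and 1 gene of all passed.

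**Figure D1:**
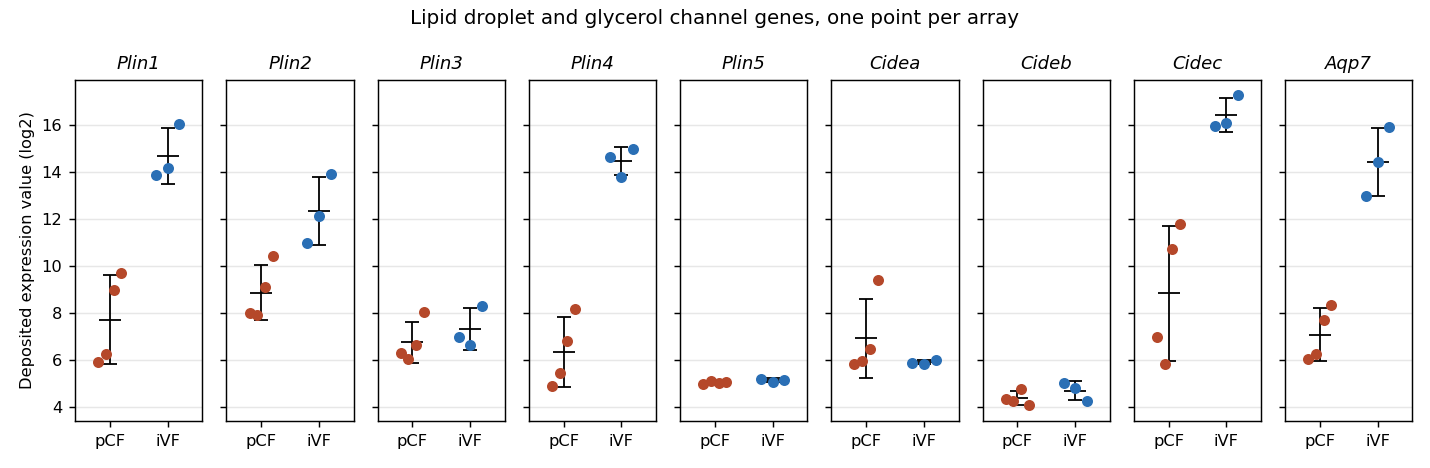
Deposited log2 value of each of the 9 genes on every array, with paracardial fat (pCF, 4 arrays) in red and intra-abdominal fat (iVF, 3 arrays) in blue. Bars give the mean and 1 SD of each depot. The depots are apart in Plin1, Plin2, Plin4, Cidec and Aqp7 and overlap in the other 4 genes.

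Plin4, the largest perilipin, which is abundant in white adipocytes and coats small new droplets, had the largest difference of the 9. Its log2 value was 4.88, 5.44, 6.80 and 8.17 across pCF 1 to 4 and 14.63, 13.78 and 14.96 across iVF 1 to 3. The lowest intra-abdominal array lay 5.61 above the highest paracardial array. The paracardial mean was 6.32 ± 1.47 (SD, n = 4) and the intra-abdominal mean 14.46 ± 0.61 (SD, n = 3). The difference was -8.13 ± 0.81 (standard error; limma, adjusted p = 0.00818; 95% interval -10.06 to -6.20). The values of pCF 1 and 2 lay below the medians of their arrays, and no value here shows whether they were above background, so the size of the difference depends on the floor of the scale. The paracardial arrays differed among themselves, with arrays 1 and 2 below arrays 3 and 4. Within the array set of paracardial array 4 and intra-abdominal array 3 the difference was -6.79, and within the other 5 arrays it was -8.50 (adjusted p = 0.0121). Without paracardial arrays 1 and 2 it was -6.97 (adjusted p = 0.0873).

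Plin1, the main gatekeeper of the adipocyte droplet, which binds the lipase activator Abhd5 at rest, followed the same pattern. Its value was 5.91, 6.26, 8.96 and 9.68 across pCF 1 to 4 and 13.84, 14.15 and 16.02 across iVF 1 to 3. The depots stood 4.16 apart at their nearest arrays. The difference was -6.97 ± 1.10 (standard error; limma, adjusted p = 0.0175; 95% interval -9.59 to -4.34), from 7.70 ± 1.90 (SD, n = 4) to 14.67 ± 1.18 (SD, n = 3). The call ended without pCF 1 (adjusted p = 0.0519), iVF 2 (0.0667) or pCF 1 and 2 together (0.0954). The difference was -6.34 within the array set and -6.95 within the other 5 arrays (adjusted p = 0.032).

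Plin2, which coats droplets in most cell types and is the usual perilipin of cells other than adipocytes, had a smaller difference. Its value was 7.98, 7.91, 9.09 and 10.42 across pCF 1 to 4 and 10.97, 12.13 and 13.88 across iVF 1 to 3. The depots did not overlap but stood only 0.55 apart, where 8.78% of all genes had every paracardial array below every intra-abdominal array and 18.0% the reverse. The difference was -3.48 ± 0.87 (standard error; limma, adjusted p = 0.0569; 95% interval -5.56 to -1.40). It lay on the other side of the threshold without paracardial array 4 (-4.00, adjusted p = 0.0489), after centring each array on its median (-3.64, 0.0323) and within the 5 arrays outside the array set (-3.23, 0.0416). Over 19 alternatives Plin2 passed in 9, with differences from -4.75 to -2.57.

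Plin3, a perilipin of the cytosol that moves onto nascent droplets in many tissues, had overlapping depots. Its value was 6.26, 6.02, 6.62 and 8.02 across pCF 1 to 4 and 6.94, 6.62 and 8.30 across iVF 1 to 3. The highest array of each depot belonged to the array set. The difference was -0.55 ± 0.61 (standard error; limma, adjusted p = 0.632). Plin5, the perilipin of oxidative tissues such as heart and brown fat, which ties droplets to mitochondria, hardly varied. Its value lay between 4.97 and 5.10 on the paracardial arrays and between 5.06 and 5.19 on the intra-abdominal arrays. The difference was -0.10 (adjusted p = 0.744; 95% interval -0.47 to 0.27) at values below each array's median.

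In the RefSeq gene order Plin4 and Plin5 are direct neighbours on chromosome 17 with 0 genes between them, and Plin3 lies on the same chromosome with 8 protein-coding genes between it and Plin4. The difference was -8.13 for Plin4, -0.10 for Plin5 and -0.55 for Plin3. The depot difference of Plin4 minus that of Plin5 was -8.03 (exact permutation test over 35 splits of the arrays, two-sided, p = 0.0286, adjusted over 24 pairs of genes 0.049). Since Plin5 hardly varied, this value restates the depot difference of Plin4 and is no independent support.

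Cidec, which drives the fusion of droplets into the single droplet of white adipocytes, was lower in paracardial fat and was the member with the widest spread there. Its value was 6.97, 5.80, 10.70 and 11.79 across pCF 1 to 4 and 15.95, 16.07 and 17.26 across iVF 1 to 3. The paracardial arrays fell into a low pair, arrays 1 and 2, and a higher pair, arrays 3 and 4, with a range of 5.99 against 1.31 in intra-abdominal fat. The nearest arrays of the depots stood 4.16 apart. The mean was 8.82 ± 2.88 (SD, n = 4) against 16.42 ± 0.72 (SD, n = 3), and the difference was -7.61 ± 1.51 (standard error; limma, adjusted p = 0.0287; 95% interval -11.22 to -4.00). When each array was left out in turn, the call held 1 time of 7, without pCF 4 (adjusted p = 0.0322). The adjusted p was 0.0806, 0.0556 and 0.0527 without paracardial arrays 1, 2 and 3 and 0.0635, 0.105 and 0.0751 without intra-abdominal arrays 1, 2 and 3. The difference was -5.46 within the array set and -8.18 within the other 5 arrays (adjusted p = 0.0533).

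Cidea, the CIDE protein of brown and beige fat, went its own way. Its value was 5.82, 5.94, 6.47 and 9.38 across pCF 1 to 4 and 5.87, 5.81 and 5.99 across iVF 1 to 3. Paracardial array 4 stood highest, and paracardial array 3 also lay above every intra-abdominal array. On pCF 1 and 2 and on every intra-abdominal array the value lay below the array's median. The difference was 1.01 ± 0.87 (standard error; limma, adjusted p = 0.542; 95% interval -1.07 to 3.10), and without paracardial array 4 it was 0.19. Ucp1, the uncoupling protein of brown fat, had its one high value on the same array, 13.92 against 4.61, 4.99 and 6.14 on paracardial arrays 1 to 3 and 4.36 to 4.84 in intra-abdominal fat. The other measured brown fat markers were also highest on paracardial array 4, at 6.86 for Cox8b and 8.24 for Cox7a1. Both also stood higher on iVF 3, the other array of the array set, than on iVF 1 and 2. Cox8b was 5.58 there against 4.33 and 4.28, and Cox7a1 6.75 against 5.64 and 5.61, while Ucp1 had its lowest value there, 4.36. The part of brown fat in that sample was not tested. Cideb, the CIDE protein of liver and gut, where it takes part in lipoprotein loading, lay between 4.05 and 4.76 in paracardial fat and between 4.24 and 5.01 in intra-abdominal fat. Its difference was -0.33 (adjusted p = 0.516; 95% interval -0.98 to 0.31), at values below each array's median.

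Aqp7, through which adipocytes release glycerol, was lower in paracardial fat. Its value was 6.02, 6.23, 7.70 and 8.31 across pCF 1 to 4 and 12.96, 14.41 and 15.89 across iVF 1 to 3. Here the spread was larger in intra-abdominal fat, pCF 1 lay below its array's median, and the nearest arrays of the depots stood 4.65 apart. The mean was 7.07 ± 1.12 (SD, n = 4) against 14.42 ± 1.46 (SD, n = 3). The difference was -7.35 ± 0.85 (standard error; limma, adjusted p = 0.00896; 95% interval -9.38 to -5.32). It was -7.57 within the array set and -7.03 within the other 5 arrays (adjusted p = 0.0179). Without paracardial arrays 1 and 2 it was -6.41 (adjusted p = 0.0954).

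With any 1 of the 7 arrays left out, Plin4 and Aqp7 still passed, the highest adjusted p being 0.0377 and 0.0435, and Plin1 passed 5 times. Other aquaporins are the nearest relatives to set beside Aqp7. Aqp3, a glycerol channel of skin and kidney whose gene lies beside Aqp7 with no protein-coding gene between, had values of 5.93, 5.61, 4.98 and 4.84 across pCF 1 to 4 and 5.33, 5.09 and 4.71 across iVF 1 to 3, a difference of 0.29 (limma, adjusted p = 0.640). Of 5 other measured aquaporins 1 was lower, the water channel Aqp1 of endothelium and red cells, at -4.66 ± 1.06 (standard error, adjusted p = 0.0426). Its call ended in every fit that left out an array (adjusted p 0.0569 to 0.115). Mip, Aqp2, Aqp4 and Aqp6 differed by -0.40 to 0.12 and did not pass. Aqp3, Mip, Aqp4 and Aqp6 lay below the array's median on every array, and Aqp2 on all but iVF 1. No value here shows whether these channels were above background, so their small differences do not show unchanged expression.

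**Figure D2:**
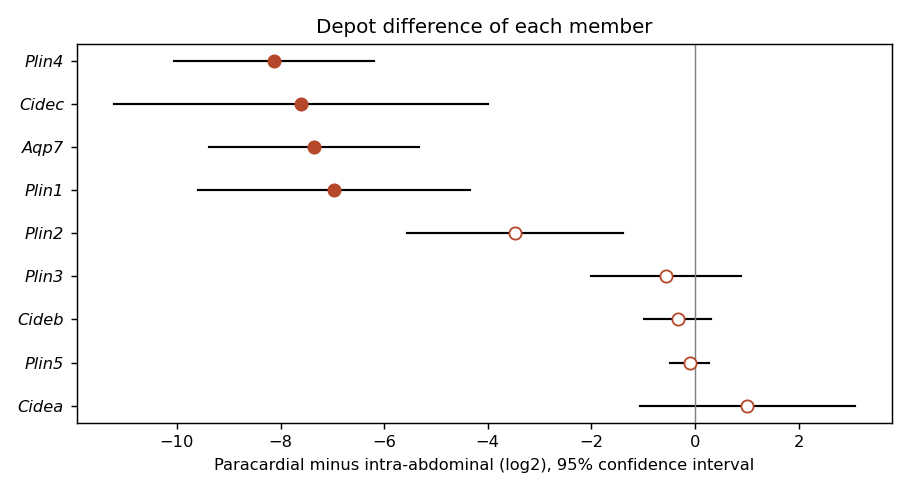
Difference between the depots (paracardial minus intra-abdominal, log2) of each of the 9 genes with its 95% confidence interval from limma. Filled points passed an adjusted p of 0.05 over all genes. Plin4, Cidec, Aqp7 and Plin1 lie between -8.13 and -6.97, and Plin3, Cideb, Plin5 and Cidea have intervals that include 0.

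Whether members differed from each other in the size of their depot difference was asked on the value of one gene minus that of another on the same array. In all, 24 such differences were tested by an exact permutation test over the 35 splits of the arrays (two-sided, smallest possible p = 0.0286). The 14 that passed all had this smallest p and share an adjusted p of 0.049. That adjusted value rests on how many of the 24 reached the smallest p, so these calls stand or fall together. Plin4, Cidec and Aqp7 were known from earlier results of these data to differ widely, so these tests describe sizes and are no independent support. Minus the depot difference of Plin2, that of Plin4 was -4.65, that of Cidec -4.13 and that of Aqp7 -3.87 (each exact permutation p = 0.0286, adjusted 0.049). Minus that of Plin3 the values were -7.58, -7.05 and -6.80, and minus that of Plin5 they were -8.03, -7.51 and -7.25, with the same adjusted p in each case. Minus that of Cidea they were -9.15, -8.62 and -8.37, again with that adjusted p. Minus that of Cideb, Plin4 stood at -7.80 and Aqp7 at -7.02 (adjusted 0.049), and Cidec at -7.27 did not pass (exact permutation p = 0.0571, adjusted 0.0914).

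Among the 4 genes that were lower, no pair passed. The depot difference of Plin4 minus that of Cidec was -0.52 (exact permutation test, adjusted p = 0.656), minus Aqp7 -0.78 (0.505) and minus Plin1 -1.17 (0.202). That of Cidec minus Plin1 was -0.64 (exact permutation test, adjusted p = 0.522) and that of Aqp7 minus Plin1 -0.38 (0.53). That of Cidec minus Aqp7 was -0.26 and did not pass, and its sign turned after quantile normalization was applied again (0.18) and without pCF 1 (0.010), pCF 2 (0.47) or iVF 1 (0.24). That of Plin4 minus Aqp7 turned to 0.037 without iVF 1, and that of Plin4 minus Cidec ranged from -1.24 to -0.06 over the fits without one array. The paracardial arrays spread widely in some of these pairs, from -3.90 to -0.36 for Plin4 minus Cidec against -2.30 to -1.32 in intra-abdominal fat.

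The same question was put to the median of the 9 adipocyte markers, which differed by -6.36 between depots. Minus it, Plin4 stood at -1.77 (exact permutation test, adjusted p = 0.381), Cidec at -1.24 (0.129) and Aqp7 at -0.99 (0.514). Plin4, Cidec and Aqp7 were therefore not shown to fall by more than the adipocyte markers of the same arrays. The other members were not compared with the marker median. All 3 genes and the marker median were higher on paracardial arrays 3 and 4 than on paracardial arrays 1 and 2.

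**Figure D3:**
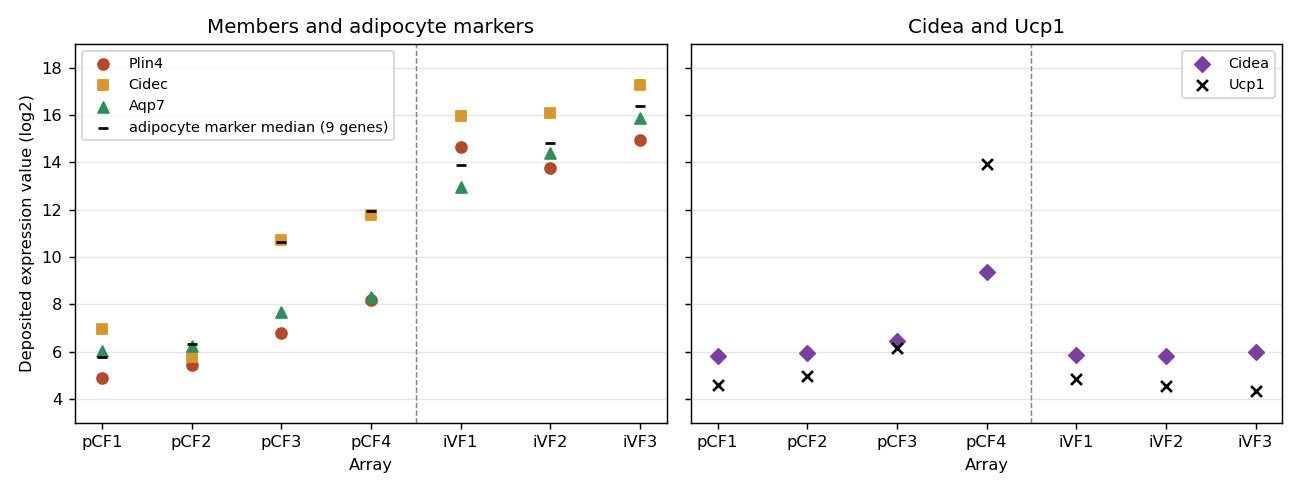
Left, log2 value of Plin4, Cidec and Aqp7 on each array with the median of 9 adipocyte markers (dash). Right, log2 value of Cidea and of the brown fat gene Ucp1 on the same arrays. The dashed line separates the 4 paracardial from the 3 intra-abdominal arrays. The marker median and the 3 genes are lower on every paracardial array than on any intra-abdominal array, and Cidea and Ucp1 stand high on paracardial array 4, at 9.38 and 13.92.

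The lipases and regulators that act on the droplet surface were examined as a list. Among 7 measured lipolysis genes, 3 passed as lower and 4 missed the threshold, with a median difference of -0.83. Pnpla2, the triglyceride lipase that starts lipolysis and one of the adipocyte markers above, had values of 6.82, 6.78, 11.16 and 11.96 across pCF 1 to 4 and 16.08, 16.64 and 16.38 across iVF 1 to 3. Its difference was -7.19 ± 1.43 (standard error; limma, adjusted p = 0.0286). Prkar2b, the regulatory subunit of the protein kinase A form found in adipocytes, differed by -6.16 (adjusted p = 0.025), and G0s2, an inhibitor of Pnpla2, by -2.49 (0.0437). The lipase Abhd6, the hypoxia-induced droplet protein Hilpda and the adenylyl cyclases Adcy3 and Adcy6 differed by -0.83 to 0.02 and did not pass.

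Genes that build the stored lipid formed the next list. Of 6 measured genes of triglyceride synthesis and droplet formation 1 was lower and none higher, with a median difference of -1.08, although 4 had every paracardial array below every intra-abdominal array. The one was Agpat2, an acyltransferase of that pathway and also one of the adipocyte markers, at -3.16 ± 0.67 (standard error; limma, adjusted p = 0.0351). With the array set as a block 3 passed, and within the 5 arrays outside the set 2 passed. Of 4 measured genes of glycerol handling 1 was lower, Pck1, which supplies new glycerol backbones in fat. Its values were 6.15, 5.95, 9.08 and 9.61 across pCF 1 to 4 and 14.72, 15.28 and 13.84 across iVF 1 to 3, a difference of -6.92 ± 1.04 (standard error, adjusted p = 0.015). Gpd1, which makes glycerol 3-phosphate, differed by -6.03 and did not pass (adjusted p = 0.132). Its depots overlapped, since paracardial array 4 at 13.96 lay above intra-abdominal array 1 at 13.90.

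Caveolae, the membrane pits that are dense on adipocytes and endothelium, held the list with the lowest median. Of 6 measured genes 4 were lower and none higher, with a median of -6.09 beside 0.133 over all genes. They were the caveola neck protein Ehd2 (-8.50 ± 1.12, adjusted p = 0.0116), the glucose transporter trafficking protein Trarg1 (-7.35 ± 1.10, 0.0151), the caveolin Cav2 (-6.36 ± 0.72, 0.00862) and the coat protein Cavin2 (-5.83 ± 1.24, 0.0353), with standard errors and limma adjusted p. The endothelial markers Cdh5 (-7.05, adjusted p = 0.0117) and Kdr (-4.78, 0.0193) were lower on the same arrays, and their part in this list was not tested. Cavin3 differed by -3.78 and did not pass (adjusted p = 0.103).

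Among 7 measured transcription factors of adipocyte genes 2 were lower and none higher, with a median of -0.50. Pparg, the receptor that drives adipocyte differentiation, had values of 6.14, 6.51, 7.91 and 8.07 across pCF 1 to 4 and 10.64, 12.35 and 13.44 across iVF 1 to 3. Its difference was -4.98 ± 0.79 (standard error; limma, adjusted p = 0.0175). Mlxipl, the carbohydrate response factor, differed by -1.19 (adjusted p = 0.0241). Cebpd (-0.91), Klf4 (-0.50), Klf15 (-0.20), Cebpb (-0.06) and the receptor partner Rxrb (0.18) did not pass.

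Of the 12 pathway genes past the threshold, Ehd2 and Cav2 passed with any 1 of the 7 arrays left out. Without iVF 2 the other 10 calls ended (adjusted p 0.0684 to 0.115). Without paracardial array 1 the calls of 9 ended (0.05 to 0.115), with Ehd2, Trarg1 and Cav2 kept, and without paracardial array 2 those of 8 (0.0518 to 0.112), with Pck1 kept as well. Without paracardial array 3 the calls of Prkar2b, G0s2, Agpat2, Aqp1 and Cavin2 ended (0.0532 to 0.102), and without paracardial array 4 those of G0s2, Aqp1 and Cavin2 (0.0514 to 0.076). Without intra-abdominal array 1 the calls of Pnpla2, G0s2, Agpat2, Aqp1 and Mlxipl ended (0.0516 to 0.0658), and without intra-abdominal array 3 those of Pnpla2, Prkar2b, Agpat2 and Aqp1 (0.0524 to 0.0787). Without paracardial arrays 1 and 2 together none of the 12 passed (0.0873 to 0.227). The median of the glycerol handling list was then -1.56, against -3.11 on all 7 arrays. That of lipolysis was -0.41, that of synthesis -0.76, that of caveolae -5.09 and that of the transcription factors -0.36. The median of the other aquaporins went the other way, from -0.34 to -0.51.

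**Figure D4:**
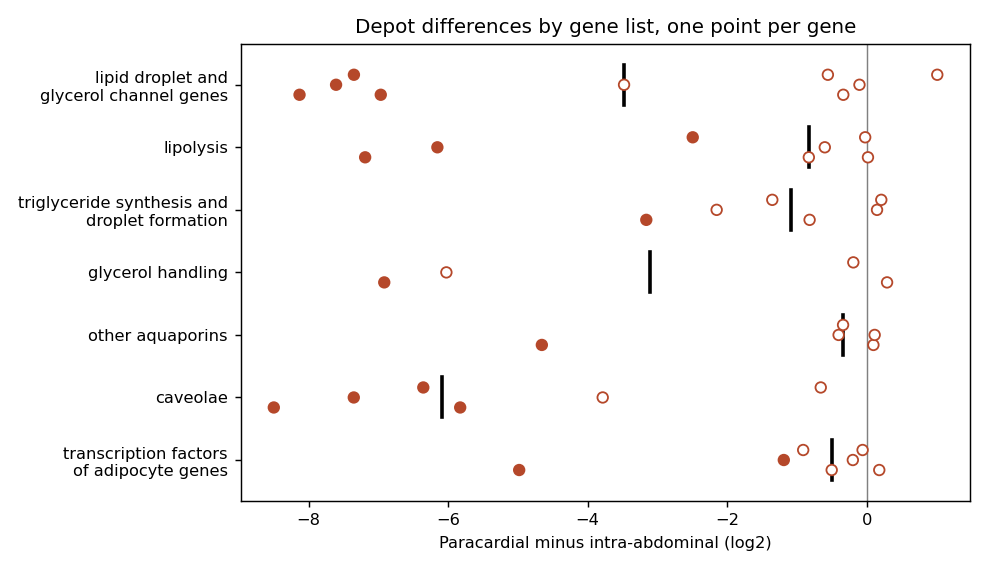
Difference between the depots (paracardial minus intra-abdominal, log2) of each measured gene of the lipid droplet and glycerol channel group and of 6 related lists. Filled points passed an adjusted p of 0.05 over all genes and black bars are list medians. Every list holds at least 1 passed gene, all of them lower, and the caveolae list has the lowest median at -6.09.

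The genes whose values ran most like those of Plin4, Cidec and Aqp7 were found by Pearson's r over the 7 arrays among 5118 named genes. The points of each r share the depots, so a large depot difference alone gives a high r, and r is given as a description. Nearest to Plin4 were Csad (0.998), an enzyme of taurine synthesis, Prelp (0.994), Ehd2 (0.994), the natriuretic peptide receptor Npr3 (0.994) and the amine oxidase Aoc3 (0.994). Nearest to Cidec were the cobalamin carrier Tcn2 (0.998), the glutathione transferase Gstm1 (0.997), the monooxygenase Fmo1 (0.995), Pnpla2 (0.993) and Tgoln1 (0.992). Nearest to Aqp7 were Cav2 (0.9995), the thyrotropin receptor Tshr (0.999), Fads3 (0.999), Serpina3n (0.998) and the Notch ligand Jag1 (0.997). Cav2 had values of 5.64, 6.02, 7.07 and 7.75 across pCF 1 to 4 and 11.86, 12.85 and 14.23 across iVF 1 to 3, which followed Aqp7 array by array.

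All 15 of these genes were lower in paracardial fat, with differences from -2.01 for Csad to -9.40 for Aoc3. That direction follows from choosing them by r with genes that were themselves lower, and is no separate result. Across all genes tested, 2.91% were lower at an adjusted p under 0.05 (limma). With the depot means removed, Cav2 (0.995) and Tshr (0.991) stayed among the 5 genes nearest to Aqp7, and Tcn2 (0.990) and Gstm1 (0.985) among the 5 nearest to Cidec. None of the 5 nearest to Plin4 stayed. Its nearest by these deviations were Erich1 (0.993), Nqo1 (0.989), Wrn (0.986), Lbh (0.984) and Zfp87 (0.983), which did not pass and had differences of 0.34 to 1.65. The calls of Tcn2, Gstm1, Fmo1 and Tgoln1 ended without paracardial array 1 (adjusted p 0.0747 to 0.0902), paracardial array 2 (0.0539 to 0.0759) or any one intra-abdominal array (0.052 to 0.126), and those of Gstm1 and Tgoln1 also without paracardial array 3 (0.0532 to 0.0652).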

How the data were processed

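Fat of wild-type male mice was measured on 7 Affymetrix arrays. The deposited table holds a log2 value for each probe on each array. RMA and Affymetrix Expression Console are named in the submitters' processing notes, and the versions, background correction and build were not found in the labels. The range of values fits a log2 scale, and nothing read here explains their ceiling. Precision is limited by the number of arrays.

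Of 11949 probes, 9352 had exactly 1 symbol in the platform annotation, 522 several and 2075 none. Symbols were updated through Entrez identifiers (5789 probes matched RefSeq GRCm38.p6, 188 changed). The probe with the highest mean was kept per gene, leaving 9294 genes, with no filter on dim genes. Depot differences, always paracardial minus intra-abdominal, were fitted with limma 3.58.1 under R 4.3.3 (lmFit, eBayes, two-sided, no covariate, Benjamini-Hochberg over all genes, threshold 0.05). Differences between 2 genes used an exact permutation test. The scripts were tested on simulated data. Python 3.11.15, pandas 2.3.3, numpy 2.4.6 and matplotlib 3.10.9 did the rest.

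Named genes were the 9 members, up to 5 passed genes of each pathway list (or the largest where none passed) and the 5 nearest genes of Plin4, Cidec and Aqp7 by levels and by deviations from the depot means, leaving out members, unnamed gene models, clone names, olfactory and vomeronasal receptors, small RNAs, receptor segments and genes at the ceiling on every array of a depot; genes named beyond this rule (other list members, Ucp1, Aqp3, and the markers) were chosen after their values were seen. Members, lists, tests and alternatives were chosen with earlier results of these data known. The main fit did not pair arrays by replicate number, and no label says whether these numbers mark animals.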

Additional observations from a re-analysis of the deposited data

Results flagged for a closer look

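Among 116 genes of the droplet group, the pathway lists, the nearest genes and the marker lists, 1 paracardial array stood far from the other 3, against the range of the 4 arrays, in 9 genes. Chance flags about 1 in 20 groups. On paracardial array 4 the brown fat genes Ucp1 (13.92) and Cox8b (6.86), the pre-T cell receptor gene Ptcra (8.69), Rxrb (5.83) and the B cell gene Blk (5.23) stood high, and the muscle actin Acta1 (5.65) stood low. Rxrb gave one and the same value on the other 3 paracardial arrays, 5.40, and so did Blk, 5.09. On paracardial array 3 the liver gene Alb (14.37) and the mesothelial gene Upk1b (8.44) stood high. Tkfc, a dihydroxyacetone kinase of the glycerol list, stood at 6.67 on paracardial array 1. None of the 9 droplet and glycerol channel genes was flagged by this rule. Cidea, though not flagged, stood at 9.38 on paracardial array 4 against 5.82, 5.94 and 6.47 on paracardial arrays 1 to 3.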

How the results depend on the processing

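All alternatives kept the sign of the differences of Plin4, Cidec, Aqp7, Plin1, Plin2, Plin5, Cidea and Cideb, and Plin3 turned to 0.031 without paracardial arrays 1 and 2. Without those arrays the difference of Plin4 was -6.97, that of Cidec -5.18 and that of Aqp7 -6.41, and none passed. Over fits without one array the difference ranged from -8.75 to -7.65 for Plin4, from -8.60 to -6.60 for Cidec and from -8.08 to -6.62 for Aqp7. Cidec also missed the threshold within the 5 arrays outside the array set (-8.18).

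The replicate number as a block, without paracardial array 4, gave -8.75 for Plin4, -8.60 for Cidec and -7.77 for Aqp7, with adjusted p of 0.0505, 0.0557 and 0.0505, and 0 genes passed (limma), with 2134 at an unadjusted p under 0.05. Same-numbered arrays correlated at 0.0479, 0.0474 and -0.500 in their deviations from the depot means. These correlations cannot show whether same-numbered samples came from the same animal, and the labels do not say.

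Counts of all genes were 2235 higher and 1379 lower with array weights (whose estimation did not converge), 1081 and 573 when the array set was a block term, and 0 and 1 without paracardial arrays 1 and 2 (1751 at an unadjusted p under 0.05). Lower genes were 474 after quantile normalization again and 571 after cyclic loess. Without one array they ranged from 62 to 274 and the higher genes from 114 to 569. Of 24 pairs of genes 14 passed as deposited and 15 under each of these scalings, where Cidec against Cideb passed too and Cidec minus Aqp7 turned to 0.18 after quantile normalization. Without one array Cidec minus Aqp7 ranged from -0.83 to 0.47 and Plin4 minus Aqp7 from -1.26 to 0.04. With 6 arrays the permutation test cannot pass (smallest p 0.0667 or 0.1). Centring cannot change a difference within an array. Cideb (-0.46) passed with array weights. Signal over background is unknown. It limits Plin5 and Cideb, and also the exact differences of Plin4 (pCF 1 and 2), Cidec (pCF 2), Aqp7 and Plin1 (pCF 1), whose values there lay below the array medians. The same limit holds for Cidea on pCF 1 and 2 and on every intra-abdominal array. It also holds for Aqp3, Mip, Aqp4 and Aqp6 on every array, and for Aqp2 on all but iVF 1.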
